A study of Macaca mulatta with 15 samples.

Results

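CISH and the SOCS genes encode the suppressors of cytokine signalling, a family of feedback inhibitors. They were followed here across 4 subsets of T cells from the blood of 2 rhesus macaques, named RhDBCb and RhM22, before and after dosing with 2-hydroxypropyl-beta-cyclodextrin, a cyclic sugar that takes up cholesterol. The members were the rows of the deposited count table whose symbol was CISH or SOCS1 to SOCS7. Of the 8 genes listed, 7 had a row and all 7 were tested, among 14814 tested genes and 34884 rows in all. The member without a row under its symbol was SOCS4, which was not analysed here. The family was selected on earlier results of these libraries, in which CISH stood among the genes that differed most between the draws of RhDBCb. CISH is therefore given as a description, with no test, wherever draws are compared.

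Cytokines such as the interleukins bind receptors whose attached Janus kinases phosphorylate the STAT transcription factors, and STATs switch on CISH and several SOCS genes. The proteins share an SH2 domain, which binds phosphorylated tyrosine on receptors or kinases, and a SOCS box, which recruits elongins and a cullin ubiquitin ligase. CISH and SOCS2 act mainly on receptors that signal through STAT5. SOCS1 and SOCS3 also block the kinases themselves, SOCS1 chiefly downstream of interferons and SOCS3 downstream of the IL-6 receptor chain encoded by IL6ST. SOCS5, SOCS6 and SOCS7 are less well understood and have been linked to growth factor and insulin receptors. In T cells CISH is a well known target of interleukin-2 signalling and a brake on the antigen receptor.

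The subsets were CD4 naive, CD4 memory, CD8 naive and CD8 memory cells. The before libraries came from animals without the compound. The after libraries came from the same animals given daily injections under the skin of 1 ml per kg of body weight, at 15% (w/w), over a course of 120 days at most. The labels give no age, no vehicle group and no interval between draws, so the compound and everything else that differed between an animal's 2 draws cannot be told apart. RhDBCb gave 4 libraries before and 3 after, because its CD8 naive cells after treatment were not analysed here, and RhM22 gave 4 and 4. The design thus holds 4 draws (an animal at a time), 7 pairs of a before and an after library and 15 libraries. All 4 subsets of a draw came from the same animal, so p-values measure the spread between libraries and not between draws or animals.

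Total counts ran from 44414963 to 71787211 per library. The subset labels matched their defining markers: the level of CD4, in counts scaled to a common library size (CPM), was 207 to 549 in CD4 cells and no more than 1.68 in CD8 cells, and that of CD8A was 665 to 861 in CD8 cells and no more than 3.93 in CD4 cells. The before libraries of RhDBCb stood apart. They held 13525 to 14750 genes with a count, against 14410 to 15445 in the other 11 libraries, and the summed level of 13 immediate early genes (FOS, JUN, DUSP1 and others) was 12000 to 32500 CPM in them and 6280 to 10700 CPM in the rest. The summed level of 11 platelet markers was 4.90 to 6.22 CPM in the same libraries and 15.0 to 99.9 CPM elsewhere. Every comparison that uses these libraries is therefore read with them in mind, and the subset comparisons are also given without them.

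In the authors' estimated counts CISH varied most of the family, 49.1-fold from the lowest to the highest library, and it varied more by draw than by subset. Before treatment, CISH in RhDBCb had 5.87 CPM in CD4 naive, 13.7 in CD4 memory, 5.81 in CD8 naive and 10.9 in CD8 memory cells. After treatment its level there was 86.5 CPM for CD4 naive, 66.2 for CD4 memory and 52.9 for CD8 memory cells. In RhM22 before treatment the values were 160, 155, 285 and 125 CPM in CD4 naive, CD4 memory, CD8 naive and CD8 memory cells, and after treatment 275, 246, 259 and 138 CPM. Each library of RhDBCb after treatment lay above every library of RhDBCb before and below every library of RhM22, whereas the before and after ranges of RhM22 overlapped.

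The CISH counts behind this pattern depend on how reads were divided between 2 genes. The authors' estimated counts of CISH were fractional in 15 of 15 libraries, while those of the other 6 members were whole. In 14 of 15 libraries the fraction was completed to a whole number (within 0.011 counts) by that of HEMK1, a methyltransferase gene, so the 2 genes shared reads that the authors' counting split between them. HEMK1 was high where CISH was low: it had 54.2 to 80.4 CPM in RhDBCb before, 40.7 to 59.2 after, 25.2 to 31.4 in RhM22 before and 19.4 to 38.9 after. Their sum, which does not depend on the split, was 65.1 to 86.2 CPM in RhDBCb before, 94.2 to 127 after, 156 to 315 in RhM22 before and 177 to 294 after. Over all libraries the sum ran from 65.1 to 315 CPM, a smaller fold range than that of each other member except SOCS1. The order of the 4 draws by median was thus the same for the sum (74.1, 125, 184 and 280 CPM) as for CISH (8.40, 66.2, 157 and 252 CPM). The distance of RhDBCb before from the other draws was smaller for the sum, while the 2 draws of RhM22 stood about as far apart in both. The sum also holds the reads of HEMK1 itself, which lessens fold differences most where CISH is low, however the reads were split. How much of the smaller distance came from the split was not tested.

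**Figure D1:**
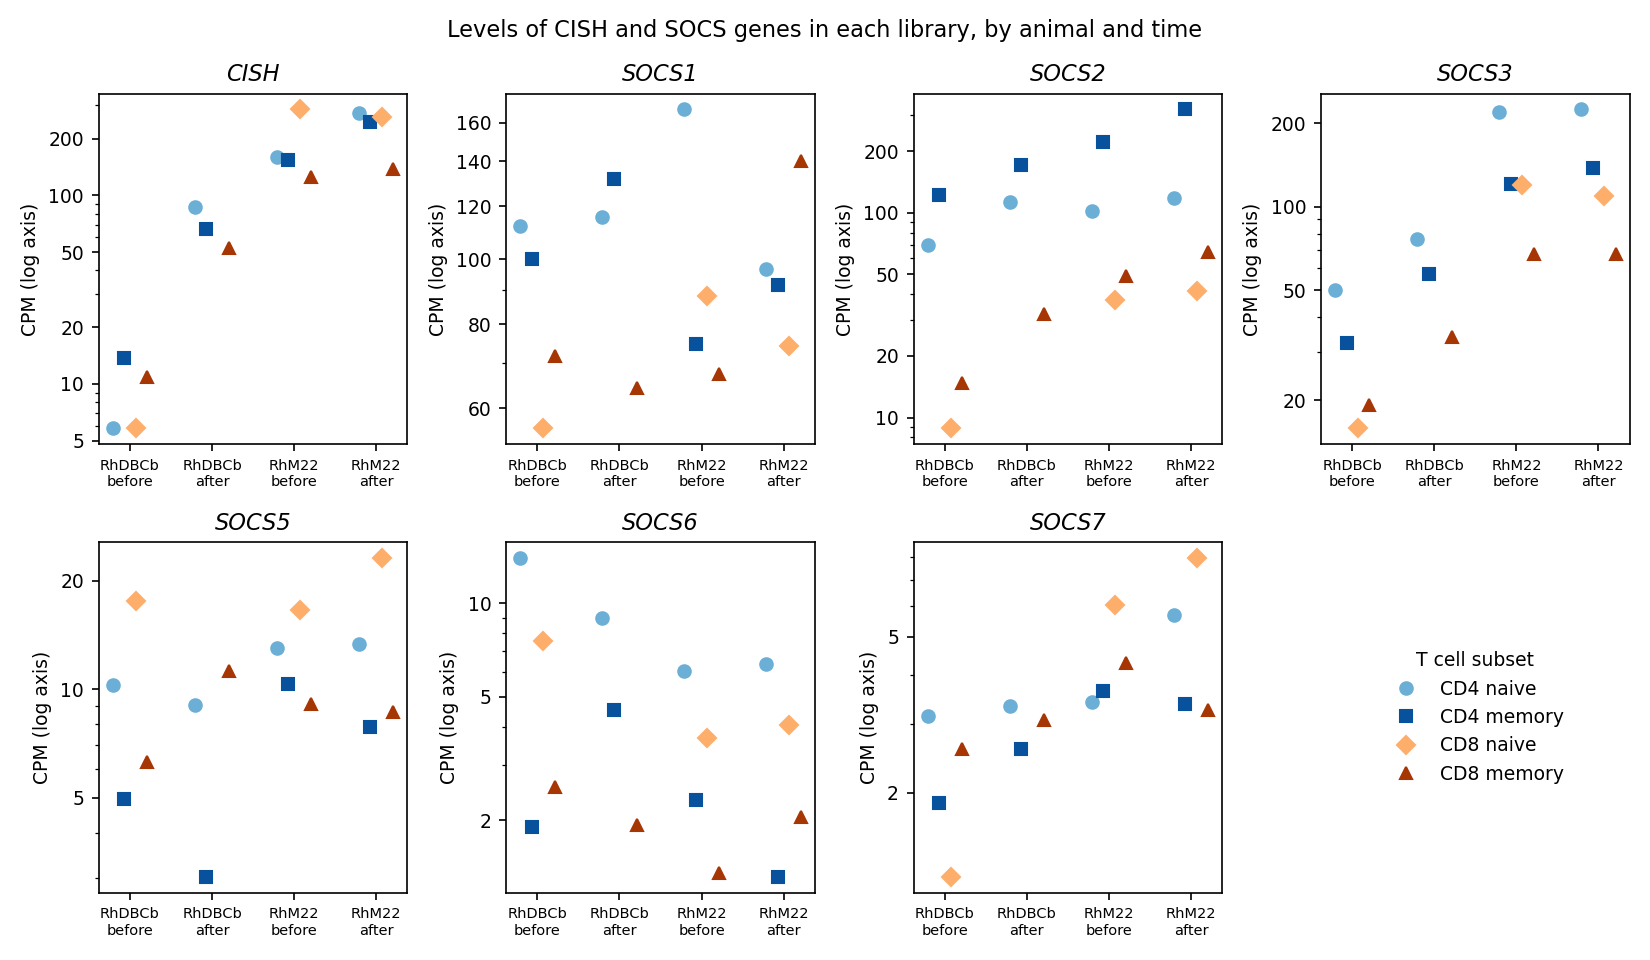
Level of each gene in each of the 15 libraries, in CPM on a log axis with its own range per panel; the columns are the 4 draws and the symbols the 4 subsets. CISH separates RhDBCb before (5.81 to 13.7 CPM) and RhDBCb after (52.9 to 86.5) from each other and from RhM22 (125 to 285), whose 2 draws overlap, SOCS2 separates CD4 (blue) from CD8 (orange and brown) cells, and SOCS6 separates naive from memory cells within each draw, though not across draws.

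SOCS1, the inhibitor best known downstream of interferon receptors, was the steadiest member. It ranged 2.99-fold over all libraries, from 56.0 to 167 CPM. In RhDBCb it had 112, 100, 56.0 and 71.9 CPM in CD4 naive, CD4 memory, CD8 naive and CD8 memory cells before treatment, and 116, 132 and 64.4 CPM in CD4 naive, CD4 memory and CD8 memory cells after it. In RhM22 the 4 subsets in the same order had 167, 74.8, 88.3 and 67.6 CPM before and 96.6, 91.7, 74.3 and 140 CPM after. The ranges of the 4 draws overlapped throughout.

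SOCS2 separated the lineages. In RhDBCb it had 69.9 CPM in CD4 naive, 123 in CD4 memory, 8.86 in CD8 naive and 14.8 in CD8 memory cells before treatment, and 113, 172 and 32.0 CPM in CD4 naive, CD4 memory and CD8 memory cells after it. In RhM22 the 4 subsets had 102, 223, 37.4 and 49.2 CPM before and 118, 320, 41.6 and 64.4 CPM after. The lowest CD4 library lay above the highest CD8 library.

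SOCS3 differed by both lineage and animal. In RhDBCb it had 49.9, 32.2, 15.8 and 19.2 CPM in CD4 naive, CD4 memory, CD8 naive and CD8 memory cells before treatment, and 76.4, 57.2 and 33.9 CPM in CD4 naive, CD4 memory and CD8 memory cells after it. In RhM22 the 4 subsets had 220, 120, 120 and 67.3 CPM before and 224, 138, 109 and 67.5 CPM after. In each subset and at each time RhM22 was above RhDBCb.

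The 3 remaining members had low CPM values, which are not scaled for gene length. SOCS5 ranged from 3.02 to 23.1 CPM (median 10.3), SOCS6 from 1.31 to 14.0 CPM (median 3.69) and SOCS7 from 1.22 to 7.96 CPM (median 3.33). Their highest libraries were RhM22 CD8 naive after for SOCS5 and SOCS7 and RhDBCb CD4 naive before for SOCS6. Expression per length is not compared between genes here. For most genes the deposited length-scaled values divided counts by a length close to the whole gene with its introns. SOCS1 and SOCS3 were exceptions, with 603 and 3075 bases against gene spans of 1756 and 1686 bases.

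Across subsets, members were tested within draws, so that each draw served as its own control, and both times were used. A gene was called at a Benjamini-Hochberg adjusted p under 0.05 over all tested genes, from edgeR's quasi-likelihood test. The order of the mean SOCS2 levels was CD4 memory (209 CPM ± 84.3, SD, n = 4), CD4 naive (101 ± 21.6, n = 4), CD8 memory (40.1 ± 21.4, n = 4) and CD8 naive (29.3 ± 17.8, n = 3). SOCS3 ran from CD4 naive (143 ± 92.4 CPM) through CD4 memory (86.8 ± 50.2) and CD8 naive (81.7 ± 57.3) to CD8 memory cells (47.0 ± 24.3), with the same n. These SDs hold the difference between animals, which the paired test removes.

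Memory cells of the CD4 lineage differed from naive ones in 3 of 7 members, beside 11.5% of all tested genes. SOCS2 was 1.95-fold higher in CD4 memory than in CD4 naive cells (log2 0.96, SE 0.23, edgeR adjusted p = 0.0144), and it was higher in 4 of 4 draws, by 1.52-fold to 2.72-fold. SOCS3 was lower in memory cells (log2 -0.66, SE 0.17, edgeR adjusted p = 0.0213), also in 4 of 4 draws. SOCS6 had the greatest difference of the 7 in this comparison, 3.50-fold lower in CD4 memory cells (log2 -1.81, SE 0.33, edgeR adjusted p = 0.00318) and lower in 4 of 4 draws. SOCS5 was lower in 4 of 4 draws too but missed the threshold (log2 -0.86, SE 0.28, edgeR adjusted p = 0.0692). It passed with DESeq2 (log2 -0.84, adjusted p = 0.0255).

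The SOCS2 and SOCS3 calls in CD4 cells were close to the threshold. SOCS2 lost its call without RhDBCb CD4 memory before (edgeR adjusted p = 0.0513), RhM22 CD4 naive before (0.0588) or RhM22 CD4 naive after (0.0563). SOCS3 lost it without RhDBCb CD4 naive before (edgeR adjusted p = 0.0785) or without any of the 4 CD4 libraries of RhM22: CD4 naive before (0.0601) or after (0.0635), CD4 memory before (0.101) or after (0.0743). SOCS5 gained a call without RhM22 CD4 memory before (edgeR adjusted p = 0.0359) or RhDBCb CD8 memory after (0.0179). SOCS6 stayed called with each of the 15 libraries left out, at an adjusted p of at most 0.0191.

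In the CD8 lineage 2 of 7 members differed between memory and naive cells, beside 16.5% of all tested genes. SOCS6 was lower in CD8 memory cells (log2 -1.43, SE 0.35, edgeR adjusted p = 0.0122) in 3 of 3 draws. SOCS5 was 2.03-fold lower (log2 -1.02, SE 0.32, edgeR adjusted p = 0.0426) and lower in 3 of 3 draws. The SOCS6 call was lost without RhDBCb CD8 naive before (edgeR adjusted p = 0.051). The SOCS5 call held in only 5 of 15 fits that left out 1 library: those without 1 of the memory libraries of RhDBCb after (CD4 or CD8), RhDBCb CD4 naive before, RhM22 CD4 memory before or RhM22 CD8 naive before. Its edgeR adjusted p reached 0.159, again without RhDBCb CD8 naive before. SOCS2 was higher in memory cells in 3 of 3 draws, by 1.32-fold to 1.67-fold, without passing (log2 0.54, SE 0.25, edgeR adjusted p = 0.166).

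Without the 4 before libraries of RhDBCb the CD8 memory comparison changed for 3 members. CISH passed at log2 -1.06 (edgeR adjusted p = 0.00692), against -0.50 (SE 0.34, 0.363) with all libraries. SOCS3 passed at -0.70 (edgeR adjusted p = 0.0198), against -0.40 (SE 0.18, 0.164), and it also passed when only RhDBCb CD8 naive before was left out (-0.66, 0.0175). SOCS5 no longer passed (log2 -0.83, edgeR adjusted p = 0.222). In all these fits the CD8 naive cells came from RhM22 alone. In the RhDBCb pair before treatment, which the fits do not hold, CISH was 1.88-fold and SOCS3 1.21-fold higher in CD8 memory cells. No other member's call changed without these libraries in any comparison between subsets. The sum of CISH and HEMK1 was lower in CD8 memory than in CD8 naive cells with all libraries kept (log2 -0.73, SE 0.15, edgeR adjusted p = 0.005). In RhDBCb before treatment that sum was 86.2 CPM in CD8 naive and 65.1 in CD8 memory cells. CISH alone was 5.81 and 10.9 CPM there.

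Between lineages the same 2 members, SOCS2 and SOCS3, were called in naive and in memory cells, both lower in CD8. Among naive cells 2 of 7 members were called, beside 3.37% of all tested genes. SOCS2 was 4.17-fold lower in CD8 naive than in CD4 naive cells (log2 -2.06, SE 0.27, edgeR adjusted p = 0.000492) and lower in 3 of 3 draws. SOCS3 was 2.14-fold lower (log2 -1.09, SE 0.19, edgeR adjusted p = 0.00384), again in 3 of 3 draws.

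Among memory cells 2 of 7 members were called, beside 8.24% of all tested genes. SOCS2 was 5.60-fold lower in CD8 memory than in CD4 memory cells (log2 -2.49, SE 0.24, edgeR adjusted p = 2.64e-05) and lower in 4 of 4 draws. SOCS3 was 1.79-fold lower (log2 -0.84, SE 0.17, edgeR adjusted p = 0.00628), also in 4 of 4 draws. All 4 of these calls held with each of the 15 libraries left out in turn, at an adjusted p of at most 0.0321. Markers of natural killer cells, 5 with a row of 6 listed, also differed between lineages: their summed level was 7.84 to 86.4 CPM in the CD8 and 0.658 to 3.28 CPM in the CD4 libraries, with NCAM1 at 0 in 3 libraries, and their part in these differences was not tested.

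**Figure D2:**
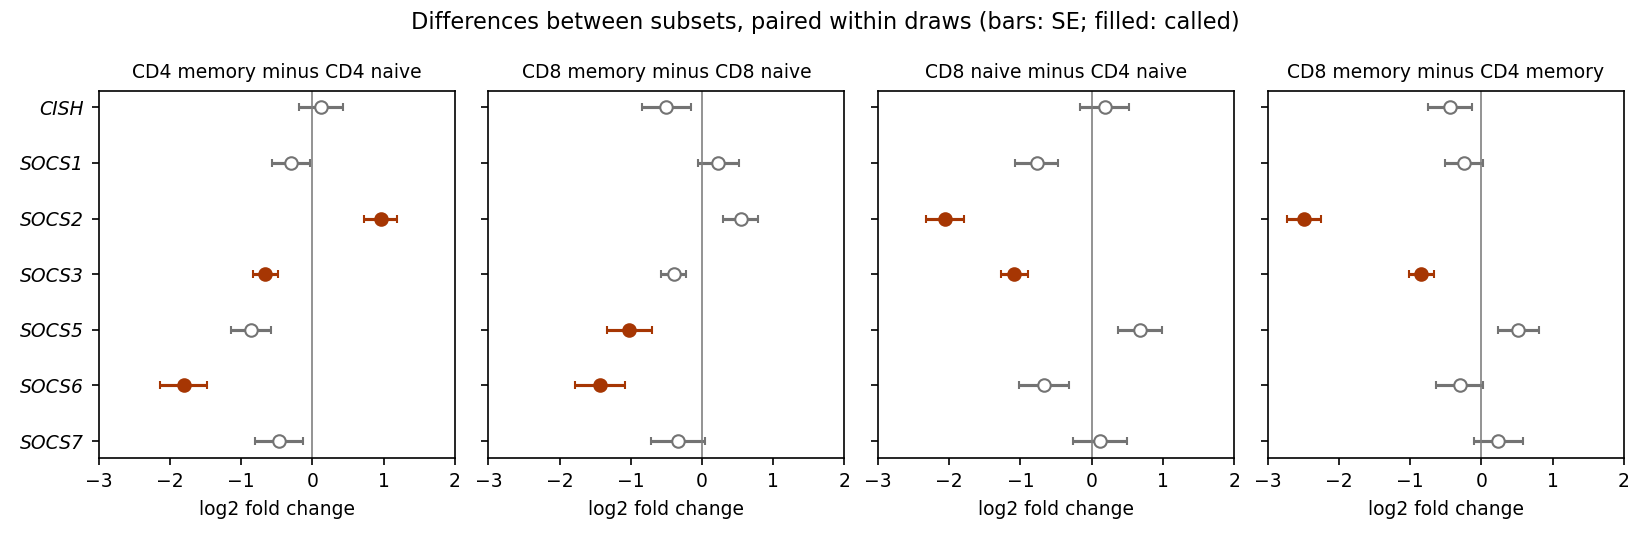
Log2 fold change of each member in the 4 comparisons between subsets, from edgeR fits paired within draws; points are the estimates, bars ± 1 SE, and filled points passed an adjusted p of 0.05. SOCS2 lies at -2.06 and -2.49 in the 2 comparisons of CD8 with CD4 cells, and SOCS6 at -1.81 and -1.43 in the 2 comparisons of memory with naive cells.

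CISH, SOCS1 and SOCS7 were not called between any of these pairs of subsets. CISH was lower in CD8 memory than in CD4 memory cells in 4 of 4 draws without passing (log2 -0.44, SE 0.31, edgeR adjusted p = 0.462). SOCS1 was lower in CD8 naive than in CD4 naive cells in 3 of 3 draws (log2 -0.77, SE 0.30, approximate interval from the SE -1.36 to -0.18, edgeR adjusted p = 0.246). SOCS7 gave estimates between -0.47 and 0.24. Whether memory cells differed from naive ones by another amount in CD8 than in CD4 cells was tested directly: 0 of 7 members passed, and 0 of 7 at an unadjusted p under 0.05 or with DESeq2, beside 0.0878% of all tested genes.

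Genes upstream of the family were also called between the subsets. Of 21 tested cytokine receptor chains, 8 were higher and 1 lower in CD4 memory than in CD4 naive cells (median log2 0.48, against -0.02 over all tested genes, of which 11.5% were called). In CD8 memory against CD8 naive cells 14 were higher and 1 lower (median 0.77, against 0.03, with 16.5% of all genes called). The 1 lower in each was IL6ST, the signalling chain shared by the IL-6 family (log2 -0.93 in CD4 and -2.33 in CD8, edgeR adjusted p = 0.0105 and 3.73e-05). Between lineages, 1 of the 21 chains was higher and 3 were lower in CD8 naive than in CD4 naive cells, beside 3.37% of all genes called. Among memory cells 3 were higher and 4 lower in CD8, beside 8.24%. IL12RB2 was higher in CD8 cells (log2 5.51 in naive and 2.34 in memory cells, edgeR adjusted p = 0.000269 and 0.00609). IL6R, the chain that binds IL-6, was lower in CD8 than in CD4 cells (log2 -1.71 in naive and -2.50 in memory cells, edgeR adjusted p = 0.00308 and 4.92e-05). Of 6 STATs, STAT4, which carries IL-12 signals, was higher in CD8 cells (log2 1.36 in naive and 1.60 in memory, adjusted p = 0.000165 and 1.52e-05), and in CD8 memory against CD4 memory cells STAT6, which carries IL-4 signals, was higher (0.91, 0.000568) and STAT3 lower (-0.47, 0.0339). Of 17 genes listed as STAT5 targets outside the family, 5 were higher and 2 lower in CD4 memory than in CD4 naive cells (median log2 0.01, against -0.02 over all tested genes), and 9 were higher and 3 lower in CD8 memory than in CD8 naive cells (median 0.91, against 0.03).

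Over both animals and all subsets, after minus before treatment, 0 of the 6 members other than CISH were called by edgeR's quasi-likelihood test, and 0 by DESeq2, beside 0.00675% of all tested genes. At an unadjusted p under 0.05 there were 2, SOCS2 and SOCS3. SOCS2 was higher after treatment in 7 of 7 pairs, by 1.11-fold to 2.16-fold (log2 0.58, SE 0.18, edgeR adjusted p = 0.361). SOCS3 was higher in 6 of 7 pairs (log2 0.42, SE 0.17, edgeR adjusted p = 0.43). CISH was higher in 6 of 7 pairs, by 14.7-fold at most (log2 1.54, SE 0.44), and its summed counts with HEMK1 gave a log2 of 0.51. The other 4 members were higher in 3 to 5 of 7 pairs.

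By subset, none of the 6 members was called after treatment, nor was any other gene. In CD4 naive cells 0 of 6 members passed edgeR's test, beside 0% of all tested genes, with 0 of 6 at an unadjusted p under 0.05 and 0 by DESeq2. In CD4 memory cells these 3 counts were again 0 of 6, beside 0% of all genes. In CD8 memory cells they were also 0 of 6, beside 0% of all genes. Over all genes 603, 230 and 216 had an unadjusted p under 0.05 in the 3 subsets, and DESeq2 called 9, 0 and 0. For CISH the log2 difference was 2.28 (SE 0.88) in CD4 naive cells, 1.59 (SE 0.84) in CD4 memory cells and 1.45 (SE 0.85) in CD8 memory cells, and summed with HEMK1 by 0.70, 0.70 and 0.37.

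**Figure D3:**
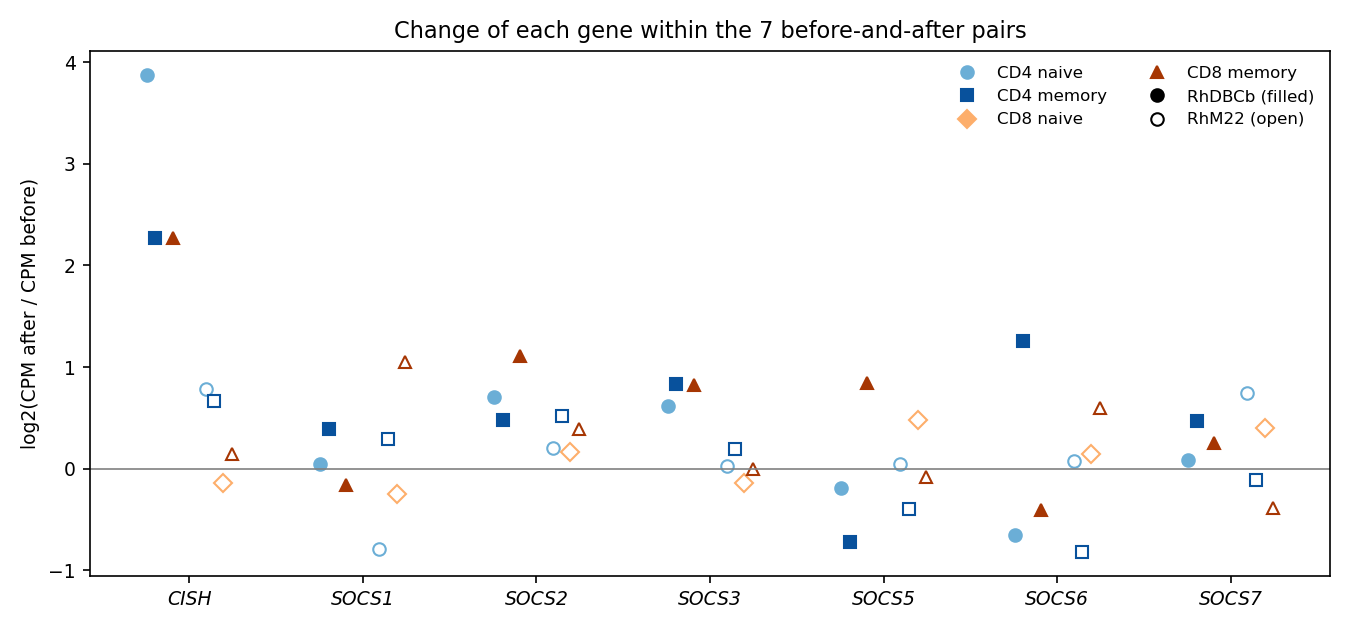
Change of each member within the 7 before-and-after pairs, as log2 of the ratio of CPM after to CPM before; filled symbols are RhDBCb, open symbols RhM22, and shapes the subsets. SOCS2 lies above 0 in 7 of 7 pairs, and the 3 pairs of RhDBCb stand highest for CISH, which reaches 3.88 in CD4 naive cells and is lowest at -0.14 in RhM22 CD8 naive cells.

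Within RhDBCb, 2 of the 6 members other than CISH rose between its draws, beside 10.1% of all tested genes. SOCS3 rose 1.85-fold (log2 0.89, SE 0.18, edgeR adjusted p = 0.00952), and SOCS2 rose 1.84-fold (log2 0.88, SE 0.24, edgeR adjusted p = 0.0367). Both were higher in 3 of 3 pairs. SOCS3 stayed called with each library left out, at an adjusted p of at most 0.0493. SOCS2 lost its call in 6 of 15 such fits: without RhDBCb CD4 naive after (edgeR adjusted p = 0.22), CD8 memory before (0.0747), CD8 memory after (0.0695) or CD8 naive before (0.0595), and without RhM22 CD8 naive before (0.0543) or after (0.0516). Fitted on the 7 libraries of RhDBCb alone, neither passed (edgeR adjusted p = 0.149 for SOCS3 and 0.147 for SOCS2). SOCS1, SOCS5, SOCS6 and SOCS7 did not pass, at log2 0.18, 0.01, 0.01 and 0.51.

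CISH was 7.65-fold higher in RhDBCb after treatment (log2 2.93, SE 0.35), the 9th largest difference by size among 8615 genes with a mean of at least 5 CPM. Summed with HEMK1 the log2 was 0.73 (SE 0.15). HEMK1 itself did not pass (log2 -0.45, SE 0.22, edgeR adjusted p = 0.232). The annotated neighbour MAPKAPK3, a kinase gene that overlaps CISH in RefSeq, did not move with it (log2 0.02, SE 0.17, edgeR adjusted p = 0.977).

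Other signals moved between the same draws of RhDBCb, where 10.1% of all tested genes were called. The before ranges below include a CD8 naive library, and the after ranges do not. The summed level of the platelet markers, 11 with a row of 12 listed, went from 4.90 to 6.22 CPM before to 15.0 to 27.9 CPM after in RhDBCb, and 3 of 9 tested markers rose (PPBP, PF4 and GP9). PPBP and PF4 were detected in all 15 libraries, PF4 at only 0.0265 CPM in its lowest. GP9 was at 0 in 4 libraries and reached 0.708 CPM at most. The summed level of 9 monocyte markers went from 3.85 to 10.5 CPM to 8.32 to 32.1 CPM, with LYZ and CD14 detected in all 15 libraries and MS4A7 at 0 in 8. LYZ had only 0.0265 CPM in its lowest library. Of 13 immediate early genes 3 fell and 1 rose in the same comparison (median log2 -0.26): FOS, JUN and DUSP1 fell (log2 -1.40, -2.13 and -1.94, edgeR adjusted p = 0.00342, 0.00136 and 0.00395), and EGR1 rose (1.75, 0.0286). The part of these signals in the changes of SOCS2, SOCS3 and CISH was not tested. In subsets measured in bulk, fewer cells of a kind and less RNA per cell cannot be told apart.

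In RhM22, 0 of the 6 members other than CISH were called between the draws by edgeR or by DESeq2, and 0 at an unadjusted p under 0.05, beside 0.0608% of all tested genes. SOCS2 was higher in 4 of 4 pairs (log2 0.32, SE 0.22, approximate interval from the SE -0.13 to 0.77, edgeR adjusted p = 0.925). SOCS3 had an estimate of 0.02 (SE 0.16, interval -0.31 to 0.35, edgeR adjusted p = 1). CISH had 0.34 (SE 0.31), and 0.32 (SE 0.14) when summed with HEMK1.

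The difference between the animals in their change, RhM22 minus RhDBCb, was tested as a contrast of the 4 draws. Of the 6 members 0 passed edgeR's test, 1 had an unadjusted p under 0.05 and 1 passed with DESeq2, beside 4.58% of all tested genes. That member was SOCS3 (log2 -0.87, SE 0.24, edgeR adjusted p = 0.0578; DESeq2 -0.88, adjusted p = 0.0159). It also passed edgeR's test without RhDBCb CD8 naive before (adjusted p = 0.0474) or RhDBCb CD8 memory before (0.0296). SOCS2 had -0.56 (SE 0.33, edgeR adjusted p = 0.375), so its rise in RhDBCb was not shown to differ from the change in RhM22. For CISH the difference was -2.59 (SE 0.46), or -0.42 (SE 0.20) summed with HEMK1.

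Before treatment the animals already differed. Of the 6 members other than CISH, 3 were called and all 3 were higher in RhM22, beside 37.6% of all tested genes, a background so high that a share of this size is not a result about the family. SOCS3 was 4.54-fold higher in RhM22 (log2 2.18, SE 0.17, edgeR adjusted p = 2.52e-06), the 141st largest difference of 8615 genes. SOCS2 was 2.41-fold higher (log2 1.27, SE 0.23, edgeR adjusted p = 0.000809). Both stayed called with each library left out. SOCS7 was 1.93-fold higher (log2 0.95, SE 0.35, edgeR adjusted p = 0.0466), a call lost in 10 of 15 fits that left out 1 library, with an adjusted p of up to 0.123 without RhM22 CD8 naive before. The 5 fits that kept it were those without either animal's CD4 naive before library, RhDBCb CD8 memory before, RhM22 CD8 memory after or RhM22 CD8 naive after. SOCS6 was lower in RhM22 (log2 -0.76, SE 0.32, edgeR adjusted p = 0.0777) and passed only without RhDBCb CD4 memory before (0.0225). CISH was 19.1-fold higher in RhM22 (log2 4.25, SE 0.35), or log2 1.45 (SE 0.14) when summed with HEMK1.

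After treatment 1 of the 6 members was called between the animals, beside 6.44% of all tested genes. SOCS3 was 2.48-fold higher in RhM22 (log2 1.31, SE 0.19, edgeR adjusted p = 0.00148), with each library left out as well. SOCS2 had log2 0.71 (SE 0.25, edgeR adjusted p = 0.106) and passed with DESeq2 (0.70, adjusted p = 0.0469). SOCS5 passed only without RhDBCb CD8 memory after (log2 0.97, edgeR adjusted p = 0.0476). CISH had 1.66 (SE 0.35), or 1.03 (SE 0.15) summed with HEMK1. Over the 7 pairs of libraries of the same subset and time, RhM22 was above RhDBCb in 7 of 7 for CISH, SOCS2, SOCS3 and SOCS7, in 5 for SOCS5, 3 for SOCS1 and 2 for SOCS6. The comparison before treatment and the change in RhDBCb share the before libraries of RhDBCb, so they are not independent of each other.

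The kinases and STATs that act upstream of the family differed between the same draws. Of all tested genes, 10.1% were called in RhDBCb, 0.0608% in RhM22 and 4.58% for the difference in change. Between the animals the share was 37.6% before treatment and 6.44% after. The change in RhDBCb, the difference in change and the comparison before treatment all use the before libraries of RhDBCb, so they are not independent. In RhDBCb, 4 of 6 STATs rose (median log2 0.72 over the 6, against 0.00 over all tested genes), led by STAT5A (log2 0.83, SE 0.17, edgeR adjusted p = 0.0105), STAT4 (0.77, SE 0.15, 0.00913) and STAT3 (0.75, SE 0.14, 0.00739). Of 4 Janus kinases 2 rose there, JAK3 (log2 0.87, edgeR adjusted p = 0.0401), which pairs with the common gamma chain, and TYK2 (0.63, 0.0367). In RhM22 the same STATs held 1 gene that fell and none that rose (median log2 -0.53, against 0.01 over all tested genes): STAT3, which carries IL-6 signals (log2 -0.90, SE 0.13, edgeR adjusted p = 0.0269). The difference between the animals in their change passed for 3 of 6 STATs, each lower in RhM22: STAT3 (-1.64), STAT4 (-1.52) and STAT5A (-1.49), at edgeR adjusted p of 0.00109, 0.00237 and 0.00541. It did not pass for STAT6, JAK3 or TYK2, which rose in RhDBCb (edgeR adjusted p = 0.212, 0.129 and 0.2). Their rise was thus not shown to differ from the change in RhM22. The fits that left out a library were not examined for the kinases and STATs. Before treatment 6 of 6 STATs and 4 of 4 Janus kinases were higher in RhM22 (median log2 1.21 and 0.97, against 0.07 over all genes), with STAT3 the highest of these STATs at 1.62 (SE 0.13, adjusted p = 2.6e-06). After treatment none of these 10 genes was called between the animals, and the STAT median was 0.04.

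**Figure D4:**
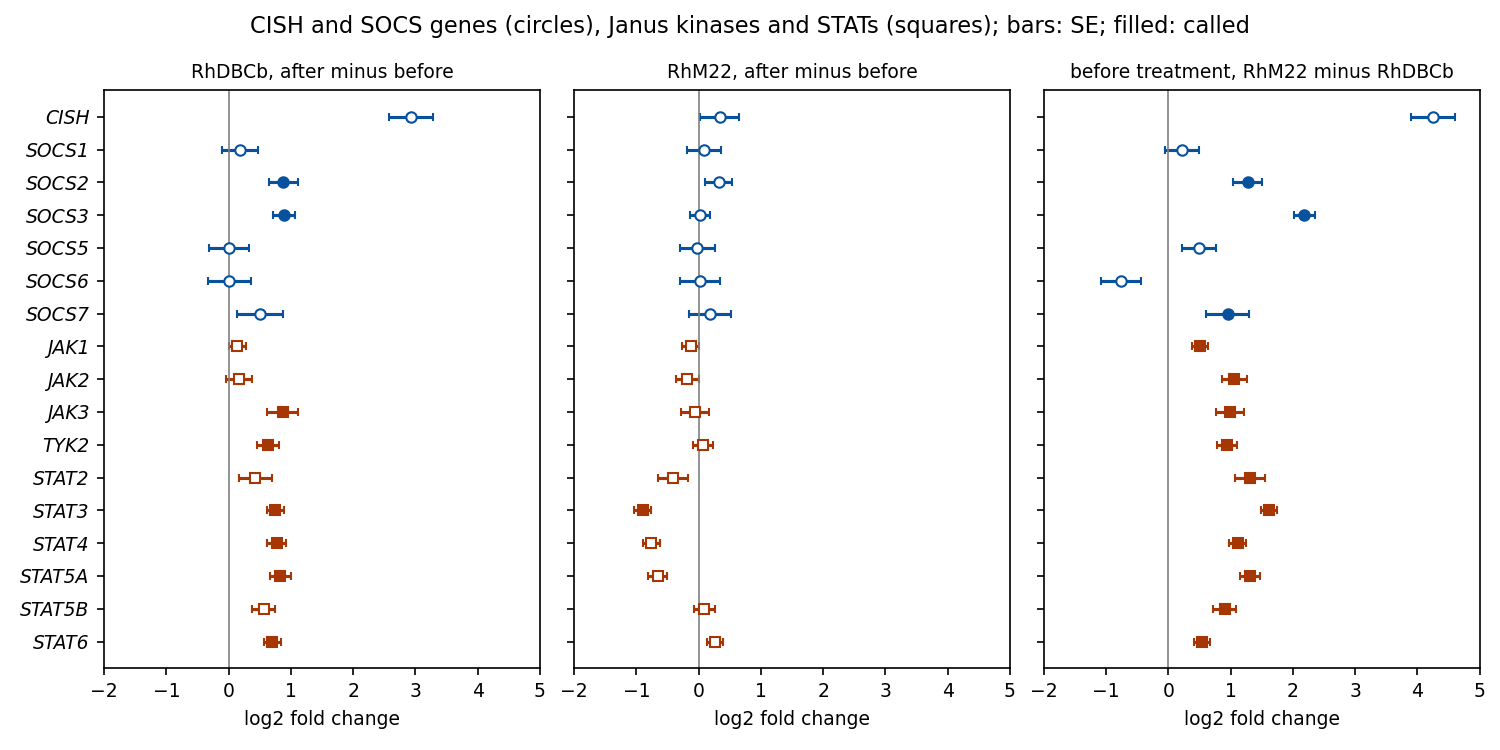
Log2 fold change of the CISH and SOCS genes (circles) and of the Janus kinases and STATs (squares) within RhDBCb, within RhM22 and between the animals before treatment; bars are ± 1 SE and filled symbols passed an adjusted p of 0.05, with CISH left unfilled because it is a description. STAT3 lies at 0.75 in RhDBCb and -0.90 in RhM22, and CISH at 2.93 and 0.34.

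For the receptors, partners and other targets of the pathway, the shares called are read beside those of all tested genes, 10.1% in RhDBCb and 37.6% between the animals before treatment. Of 21 cytokine receptor chains 3 rose in RhDBCb (median log2 0.02, against 0.00 over all genes), a share near that background: IL2RB, the signalling chain for IL-2 and IL-15 (log2 0.98, edgeR adjusted p = 0.0354), IL27RA (0.60, 0.00799) and IL21R (0.56, 0.0399), and none was called in RhM22. Before treatment 9 of the 21 were higher and 2 lower in RhM22 (median log2 0.46, against 0.07), with IL2RB at 2.03 (7.08e-05). Of 13 other inhibitors of cytokine signalling, DUSP2, a phosphatase of MAP kinases, rose in RhDBCb (log2 0.88, edgeR adjusted p = 0.00372), while the ubiquitin ligase gene CBLB (-0.91, 0.0151) and the STAT inhibitor gene PIAS1 (-0.62, 0.0149) fell. Of 6 genes listed as SOCS box ubiquitin ligase partners, the cullin gene CUL2 (-0.75, 0.0134) and RNF7 (-0.71, 0.00512) fell in RhDBCb, and 4 were lower in RhM22 before treatment (median log2 -0.51), among them ELOB, the elongin B that binds the SOCS box (-1.06, 0.00106). Of 17 STAT5 targets outside the family only IL2RB was called in RhDBCb (median log2 -0.16 over the list, against 0.00 over all genes) and none in RhM22 (median 0.14, against 0.01).

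Among themselves the members fell into no single pattern. Over the 15 libraries Pearson's r of log2 CPM was 0.85 between CISH and SOCS3, 0.78 between CISH and SOCS7 and 0.73 between SOCS3 and SOCS7, whereas SOCS5 and SOCS2 had -0.40 and SOCS6 and CISH -0.31. These are descriptions over libraries that share draws. Each r of CISH here and below uses its counts as split from HEMK1, and none was repeated on the sum. By the same measure the genes most like CISH, among 8064 other genes with a symbol and a mean of at least 5 CPM, were H6PD (r = 0.975), TRIM28 (0.967), HEXIM1 (0.966), MEPCE (0.961) and SREBF1 (0.956), which encodes the sterol-regulated transcription factor SREBP-1. SREBF1 ranged from 16.5 to 172 CPM over the libraries. The genes most like SOCS2 were DAAM1 (0.933), ZC3H12D (0.929) and GSPT1 (0.928), and those most like SOCS3 were FGFR1OP2 (0.955), ELOVL4 (0.939) and NMT2 (0.937). SOCS5 was nearest to TOGARAM1 (0.933), KLHL8 (0.932) and SECISBP2 (0.927), SOCS6 to TUBD1 (0.923), PROS1 (0.906) and PNISR (0.905), and SOCS7 to GABPA (0.891), VPS41 (0.886) and CCDC90B (0.873). SOCS1 had the weakest likeness, with FUZ at 0.835, SF3A2 at 0.808 and ZFYVE27 at 0.806.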

How the data were processed

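RNA from 15 T cell libraries was amplified with the SMART-Seq v4 kit, per the labels, so reads carry no strand. The authors deposited expected counts, estimated per gene with RSEM; the submitters' processing notes name RSEM 1.3.3, STAR 2.7.6a and cutadapt 1.18, with Mmul_10 and rheMac10 as builds. The authors also deposited FPKM. The counts divided by the FPKM values gave 1 fixed length per gene, whose median ratio to the RefSeq gene span with introns was 0.932 (interquartile range 0.896 to 0.988, 11371 genes), so FPKM served only in an alternative test. RefSeq coordinates come from another assembly and are not printed.

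Rounding the expected counts to integers shifted no library total by more than 26.1. edgeR's filterByExpr (minimum count 10, by subset and time) kept 14814 of 34884 genes, and CPM values are TMM-scaled. Models were fitted in R 4.3.3 with edgeR 4.0.16 (quasi-likelihood) on all 15 libraries with 1 shared estimate of the spread: subset, animal and time for treatment over all subsets, draw and subset for comparisons within and between animals and between subsets, and subset-by-time groups plus animal for treatment by subset. The SE is the log2 fold change over the square root of F, without its sign. Genes were called at an adjusted p under 0.05 (Benjamini-Hochberg). DESeq2 1.42.0 and limma 3.58.1 (on log2 of FPKM plus 1 or 0.1), other scalings and filters, and each library left out were alternatives; summing CISH and HEMK1 was added after the data were seen.

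Samples are paired by animal, whose name the labels carry: deviations of libraries of the same animal from their group means correlated at 0.195 to 0.501 over 42 pairs of libraries (across genes, not samples). Each group used held 1 library per animal, so the deviations of the animals mirror each other. Every correlation thus occurs once in each animal, and the 42 are not separate values. The labels do not say whether a library is a separate cell preparation. No 2 libraries held identical counts. Libraries carry no molecular identifiers, so counts include PCR copies. All 8 members are named throughout; likeness took the 5 genes closest to CISH and the 3 closest to each other member, by Pearson's r of log2 CPM with a prior count of 2, and up to 3 genes were named per pathway list. One listed gene is not reported here. The members and the gene lists were chosen with earlier results of these data known.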

Additional observations from a re-analysis of the deposited data

Results flagged for a closer look

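In the authors' estimated counts the estimated change of CISH differed in size between the 2 animals under the same contrast: RhM22 minus RhDBCb was -2.59 on the log2 scale. CISH changed by 2.93 (SE 0.35) in RhDBCb and 0.34 (SE 0.31) in RhM22. With the counts of CISH and HEMK1 summed, the difference was -0.42 (SE 0.20) and did not pass the threshold. Without RhM22 CD8 naive before, the difference for CISH was -2.17 (SE 0.45), and it no longer passed. The flag was set because the contrast passed the threshold. CISH was known to differ in RhDBCb before this comparison was made, so these values are a description, and the flag is not used as a test.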

How the results depend on the processing

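No alternative reversed the direction of a called value. Leaving out each library in turn gave 1 to 2 called members between the animals after treatment, 2 to 3 before treatment, 1 to 4 for CD4 memory minus naive, 1 to 2 for CD8 memory minus naive, 2 in each fit for both comparisons of CD8 with CD4, 1 to 2 for the change in RhDBCb and 0 to 1 for the difference between the animals in their change; the other comparisons stayed at 0. DESeq2 called 2 members between the animals after treatment and 1 for the difference in change. With the before libraries only, 0 members were called for CD4 memory minus naive, 0 for CD8 memory minus naive, 1 for CD8 minus CD4 in naive and 1 in memory cells. Fitted on the libraries of RhDBCb alone, 0 members passed there, and limma on log2(FPKM + 0.1) called 1; limma on log2(FPKM + 1) called 1 for CD8 memory minus naive. The pairing by draw mattered: with no replicate block, 1 member was called for CD4 memory minus naive, 0 for CD8 memory minus naive, 0 for CD8 minus CD4 in naive and 1 in memory cells, against 3, 2, 2 and 2 with it. Leaving the animal out of the treatment models left 0 members called. SOCS7 lost its call between the animals before treatment with no filter on low counts (adjusted p = 0.0602). For the sum of CISH and HEMK1, which also holds the reads of HEMK1 itself, the estimate for RhDBCb was 0.73, against 2.93 for CISH. Between the animals before treatment it was 1.45, against 4.25. With 2 animals and 1 draw per animal and time, the spread between draws cannot be estimated. SOCS5, SOCS6 and SOCS7 had 1.22 to 23.1 CPM. Their SEs for treatment over all subsets (0.21, 0.23 and 0.25) were above those of SOCS1, SOCS2 and SOCS3 (0.2, 0.18 and 0.17). The SE of CISH was larger still (0.44).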
